A study of Homo sapiens with 6 samples.

Results

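The G1 cyclins, their cyclin-dependent kinases (CDKs) and the retinoblastoma family were described in U251 cells, an established human glioblastoma line, after knockdown of cyclophilin B. The set has 10 genes, CCND1, CCND2, CCND3, CCNE1, CDK2, CDK4, CDK6, RB1, RBL1 and RBL2. It was taken as every probe whose annotated symbol, current or former, is one of these, which gave 14 of the 47231 probes on the arrays and 10 of 20046 named genes. A total of 4 genes had 2 probes and 6 had 1 probe, and 0 probes were found through a former symbol. RNA from 3 samples with an shRNA against cyclophilin B (shCypB) was compared with RNA from 3 samples with a non-target shRNA (shCON), each 5 days after transduction with a pLKO1.5 lentivirus, on one-colour bead arrays. All 6 samples carry the virus and come from this line. The labels call the samples of a group biological replicates but do not say whether the transductions were separate, so the p-values measure the spread between these samples. With 1 shRNA against cyclophilin B, loss of the protein and other effects of that shRNA cannot be told apart.

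In the mammalian cell cycle, mitogens raise the D-type cyclins, which bind CDK4 or CDK6 and begin to phosphorylate the retinoblastoma protein. Cyclin E with CDK2 carries this further, the retinoblastoma protein releases the E2F transcription factors, and genes for DNA synthesis are switched on. The related pocket proteins p107 (RBL1) and p130 (RBL2) hold other E2F factors, and p130 is best known in resting cells as part of the DREAM complex, which represses cell cycle genes. Glioblastomas often carry changes in this pathway.

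Median bead signals lay between 75.4 and 82.3 on the arrays, and 35.1% to 39.6% of probes were detected on each (detection p below 0.05, the p being the rank of a probe among negative control beads). The precision is limited by the number of arrays, 3 per group. The probe of PPIB, the targeted gene, read 4.58, 4.44 and 4.81 (log2) on the shCypB arrays, where it was not detected, against 6.05, 5.68 and 5.35 on the shCON arrays, where it was. Its fall is therefore given as at least 1.45-fold, a bound that was not itself tested. The test was on the log2 change of -1.08 ± 0.19, which includes the undetected signals (limma, adjusted p = 0.0034). Of 10 glial and glioma markers, 7 were detected on all 6 arrays and S100B, AQP4 and OLIG2 on none. Of the 7, GFAP (mean log2 signal 7.65 in shCypB and 9.49 in shCON), NES and FABP7 were called lower, and SOX2 and SLC1A3 higher. Of 5 leukocyte markers, CD68 was detected on all 6 arrays, CD14 and CD79A on some, and PTPRC and CD3E on none, with a summed linear signal of 332 to 355 on the shCypB arrays and 309 to 362 on the shCON arrays. Of 5 endothelial markers, PECAM1 and VWF were detected on some arrays and CDH5, CLDN5 and KDR on none, with a sum of 126 to 148 on the shCypB arrays and 125 to 171 on the shCON arrays. Of 5 epithelial markers, KRT19 was detected on all 6 arrays, KRT8 and KRT18 on some, and EPCAM and CDH1 on none. Their sum was 219 to 254 on the shCypB arrays and 231 to 243 on the shCON arrays. KRT18 was called lower (mean log2 signal 5.19 in shCypB and 5.60 in shCON). Of 5 neuronal markers, MAP2 was detected on all 6 arrays, SYT1 and SNAP25 on some, and RBFOX3 and STMN2 on none. Their summed linear signal, with SYT1 and MAP2 called higher, was 496 to 562 on the shCypB arrays and 306 to 330 on the shCON arrays. The part of these marker shifts in the results below was not tested.

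In shCypB cells cyclin D1 (CCND1) and CDK6 rose 2.39-fold and 1.78-fold, and the pocket protein gene RBL2 rose 1.25-fold. Cyclin E1 (CCNE1) and its kinase CDK2 fell, being 1.89-fold and 1.87-fold lower than in shCON cells. CCND3, CDK4, RB1 and RBL1 did not pass the test, and CCND2 was not detected on any array. Array values below are, unless stated, log2 signals after background correction and quantile normalization. Every change is shCypB minus shCON with its standard error. Every adjusted p comes from limma with Benjamini-Hochberg adjustment, over 17608 tested probes unless an alternative is named. An alternative was adjusted over the probes or genes that it tested. A probe or gene is called at an adjusted p below 0.05.

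Of the 14 probes, 9 were detected on all 6 arrays, 2 on some and 3 on none. The 11 probes detected on at least 3 arrays were tested, which covered 9 of the 10 genes. With each gene represented by its brightest tested probe, 3 genes were higher and 2 were lower, and 4 were not called. Over all 10517 tested genes, 23.1% were higher and 20.8% were lower, or 43.8% in either direction. By probe, 3 were higher and 3 lower of 11, against 20.3% and 18.2% of all tested probes (38.5% in either direction). CCND1, CDK6, CCNE1 and CDK2, 4 of the 9 genes, were both called and changed at least 1.5-fold, against 24.5% of all tested genes. For 7 of the 9 genes the ranges of the shCypB and the shCON arrays were separate, against 56.8% of all tested genes. These shares stand on 9 genes beside a background in which many genes changed, and nothing is read from them about the set as a whole.

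**Figure D1:**
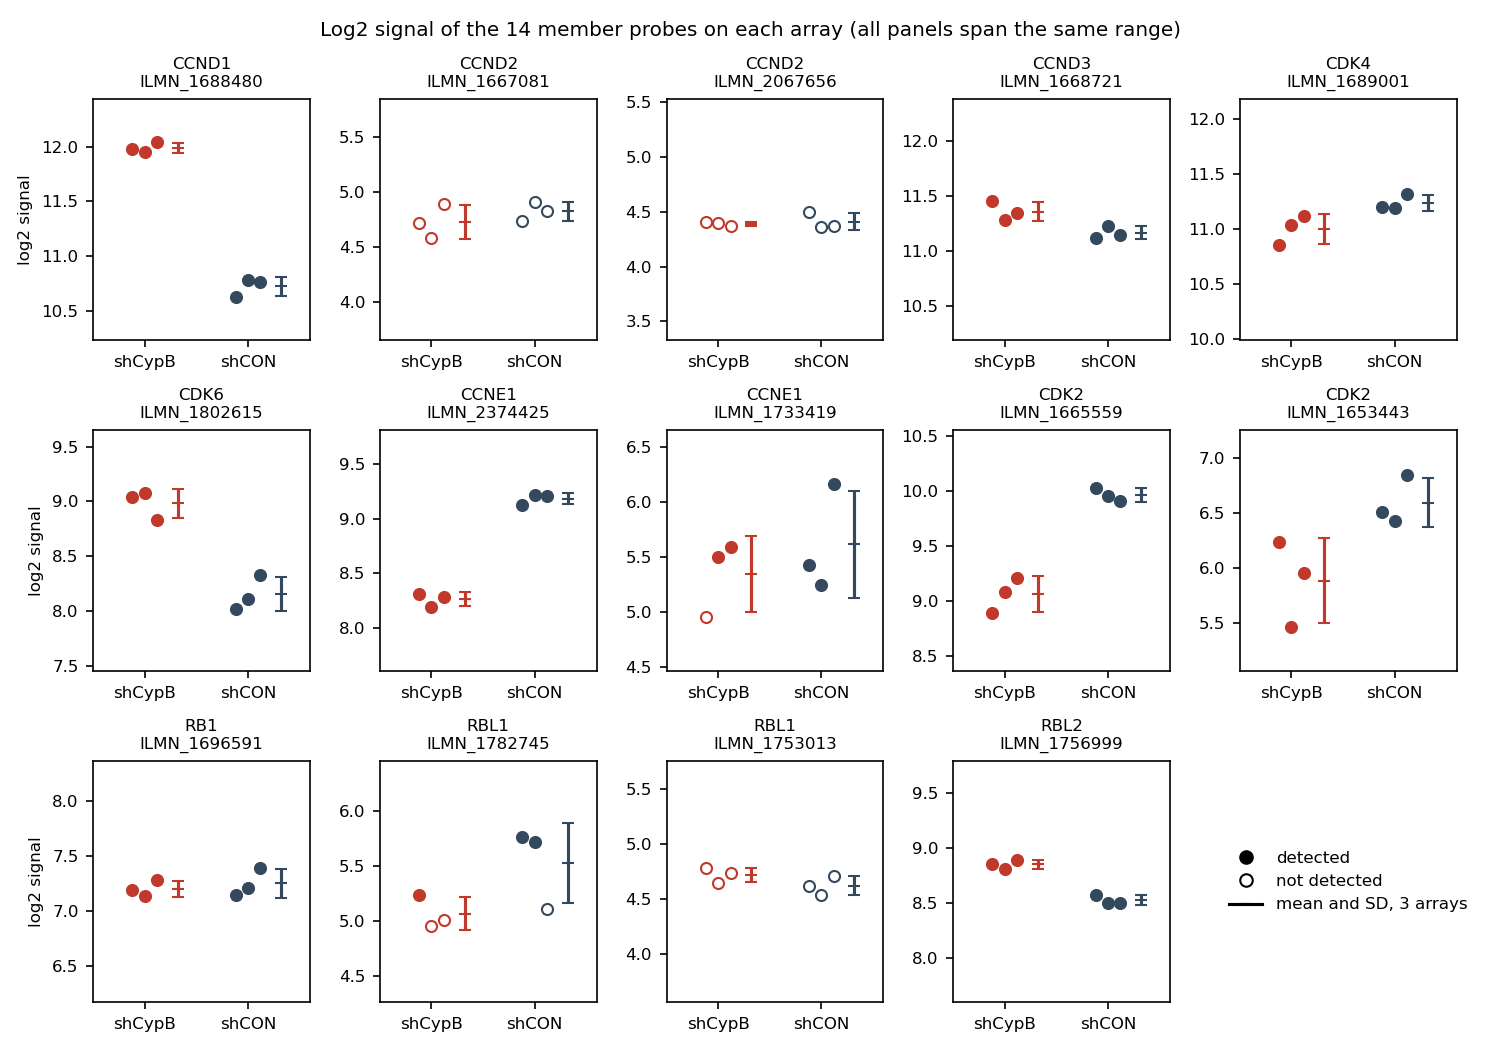
Log2 signal of each of the 14 probes on the 3 shCypB arrays (red, left) and the 3 shCON arrays (dark, right), with the mean and SD of 3 arrays beside the points. Open circles are arrays on which the probe was not detected. Each panel has its own axis of the same span. CCND1, CDK6 and RBL2 sit higher in shCypB on every array, the bright CCNE1 probe and both CDK2 probes sit lower, and the CCND2 probes are open circles throughout.

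Among the D-type cyclins, cyclin D1 carried the increase. CCND1 is the mitogen-induced regulatory subunit of CDK4 and CDK6, and its probe ILMN_1688480 was detected on all arrays. It read 11.98, 11.95 and 12.04 on the shCypB arrays and 10.63, 10.79 and 10.77 on the shCON arrays. Every shCypB array was above every shCON array, and the spread within a group was small, with an SD of 0.05 in shCypB and 0.09 in shCON (n = 3 each). The change was 1.26 ± 0.09 (95% confidence interval 1.04 to 1.48, adjusted p = 0.00012), and 3.73% of the tested genes had a greater absolute change. The signals before correction differed in the same direction, with 4605, 4048 and 4700 on the shCypB arrays against 1417, 2051 and 1330 on the shCON arrays. These signals are not normalized between arrays, so their size of change is not that of the corrected values.

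Cyclin D3 (CCND3), an alternative partner of the same kinases, read 11.45, 11.28 and 11.35 on the shCypB arrays and 11.12, 11.23 and 11.15 on the shCON arrays. The groups did not overlap but lay close together. The change of 0.19 ± 0.10 was not called (adjusted p = 0.15), and its interval of -0.03 to 0.42 lay wholly below that of CCND1. Cyclin D2 (CCND2), the third member of the family, was measured by 2 probes, both undetected on all 6 arrays. Their log2 signals ran between 4.37 and 4.89 in shCypB and between 4.36 and 4.91 in shCON, with detection p of 0.157 or higher. A change of CCND2 was not detectable at this signal, and none was tested.

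**Figure D2:**
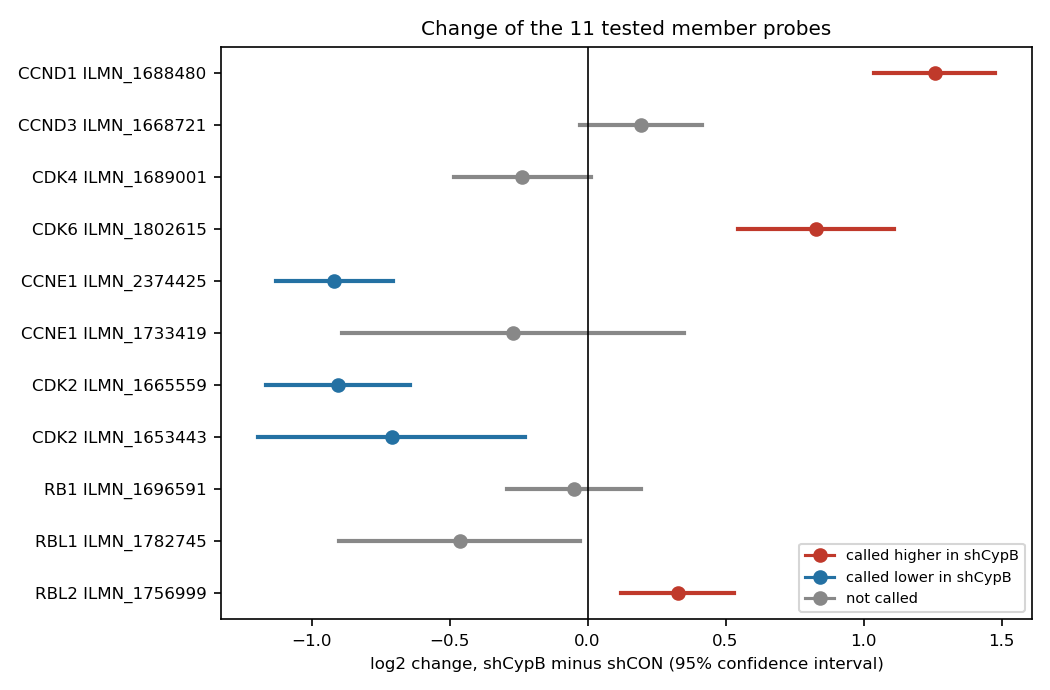
Log2 change, shCypB minus shCON, of the 11 tested probes with 95% confidence intervals from limma. Red probes were called higher, blue probes lower and grey probes were not called. CCND1 stands at 1.26 and CDK6 at 0.83, against -0.92 for the bright CCNE1 probe and -0.90 for the bright CDK2 probe.

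The partner kinases of the D-type cyclins also differed from each other. CDK6 (probe ILMN_1802615) read 9.04, 9.08 and 8.83 on the shCypB arrays and 8.02, 8.11 and 8.33 on the shCON arrays, with no overlap between the groups. Its change was 0.83 ± 0.12 (95% confidence interval 0.55 to 1.11, adjusted p = 0.0016). CDK4, the closely related kinase, read 10.85, 11.04 and 11.12 on the shCypB arrays and 11.20, 11.20 and 11.32 on the shCON arrays. The shCypB arrays were all slightly lower, but the change of -0.24 ± 0.11 was not called (adjusted p = 0.12), and its interval of -0.48 to 0.01 lay below that of CDK6. The sign of the CDK4 value depended on the scaling, since with arrays aligned on their medians it was 0.05.

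The cyclin E1 and CDK2 genes, which encode the regulatory and the catalytic subunit of the kinase that completes phosphorylation of the retinoblastoma protein, fell at the brighter probe of each. The brighter CCNE1 probe, ILMN_2374425, read 8.32, 8.20 and 8.28 on the shCypB arrays and 9.12, 9.22 and 9.20 on the shCON arrays. The fall was 0.92 ± 0.09 on the log2 scale, a log2 change of -0.92 (95% confidence interval -1.13 to -0.71, adjusted p = 0.00034), with an SD of 0.06 in shCypB and 0.05 in shCON. The other CCNE1 probe, ILMN_1733419, was dim and read 4.95, 5.49 and 5.59 on the shCypB arrays, detected on 2 of them, and 5.43, 5.25 and 6.16 on the shCON arrays. Those groups overlapped, and its change of -0.27 ± 0.27 was not called (adjusted p = 0.47). With the mean of the tested probes of the gene the change of CCNE1 was -0.59 and was called (adjusted p = 0.011).

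CDK2 was read by 2 probes that both passed the test. The brighter one, ILMN_1665559, read 8.89, 9.08 and 9.21 on the shCypB arrays and 10.03, 9.96 and 9.91 on the shCON arrays, and fell by 0.90 ± 0.11 (adjusted p = 0.00081). The dimmer one, ILMN_1653443, read 6.24, 5.47 and 5.95 on the shCypB arrays and 6.51, 6.43 and 6.85 on the shCON arrays, and fell by 0.71 ± 0.21 (adjusted p = 0.030). The groups did not overlap at either probe. The call of the dimmer probe was lost without shCON replicate 1 or 3, without shCypB replicate 2 or 3, with no filter on dim probes and with median scaling, with adjusted p up to 0.16. That of the brighter probe was kept under all alternatives tried, and the mean of both probes gave -0.81.

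**Figure D3:**
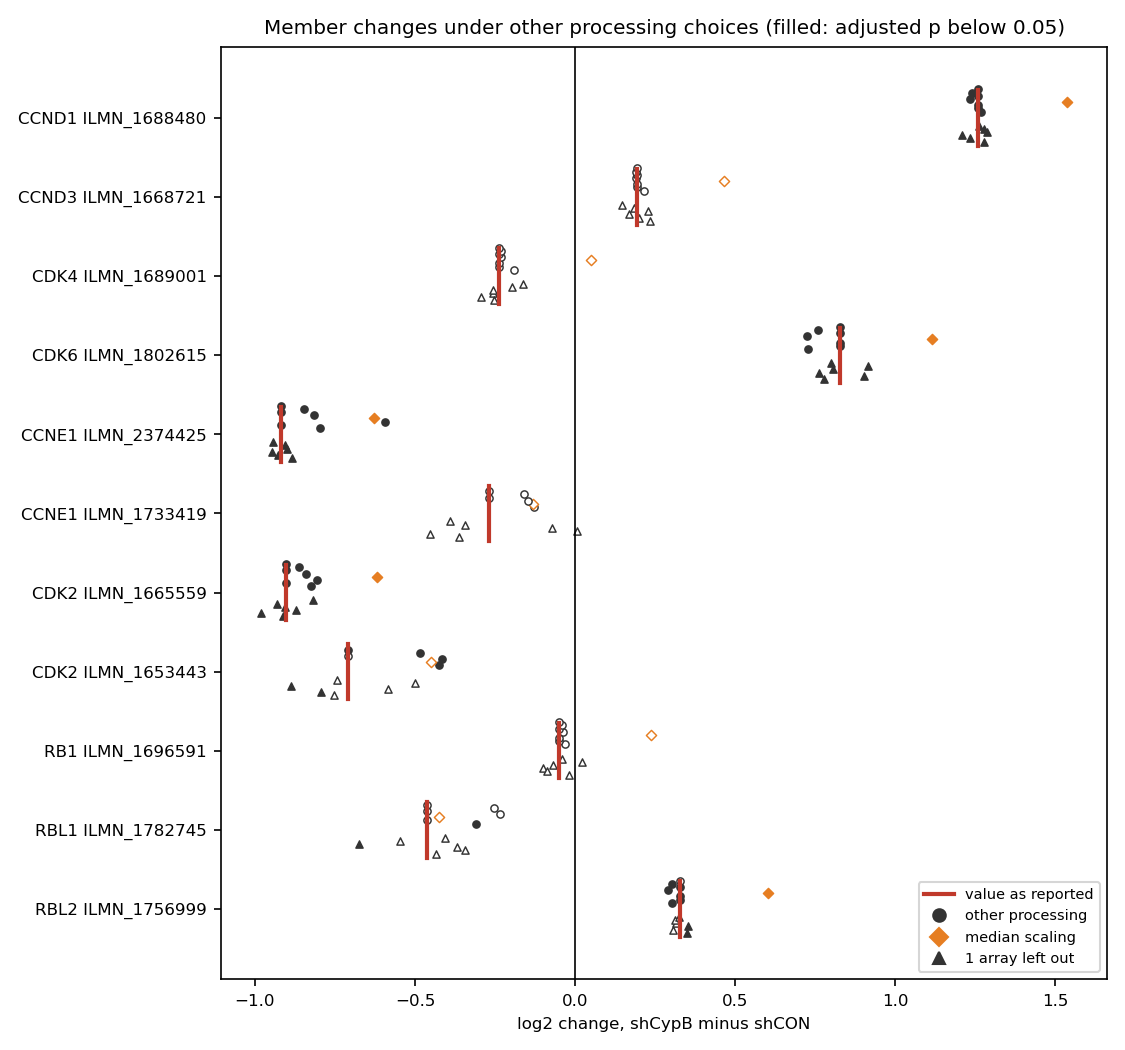
Log2 change, shCypB minus shCON, of the 11 tested probes as reported (red bars), with each array left out in turn (triangles), with median scaling (diamonds) and under the other processing choices (circles). Filled symbols have an adjusted p below 0.05. CCND1, CDK6 and the bright CCNE1 and CDK2 probes stay on their side of 0 and filled throughout. RB1 and CDK4 cross 0 with median scaling, and RB1 and the dim CCNE1 probe cross it without shCON array 3. RBL2 and the dim CDK2 probe are open in part, and RBL1 is filled in part.

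The retinoblastoma family showed smaller differences. RB1, which encodes the retinoblastoma protein, read 7.19, 7.14 and 7.28 on the shCypB arrays and 7.15, 7.21 and 7.40 on the shCON arrays. The groups overlapped, and the change of -0.05 ± 0.10 was not called (adjusted p = 0.75, 95% confidence interval -0.29 to 0.19), a range that allows folds between 0.816 and 1.14. RBL2, the gene of p130, read 8.86, 8.81 and 8.89 on the shCypB arrays and 8.58, 8.50 and 8.50 on the shCON arrays. Its groups did not overlap, and it rose by 0.33 ± 0.09 on the log2 scale (95% confidence interval 0.12 to 0.53, adjusted p = 0.022). The call did not hold without shCypB replicate 1 or 3 or without shCON replicate 2 or 3, with adjusted p of 0.053 to 0.076, while the value stayed between 0.31 and 0.35. With arrays aligned on their medians it was 0.60.

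RBL1, the gene of p107 and itself a known E2F target, was near the detection limit. Its brighter probe, ILMN_1782745, was detected on 1 of 3 shCypB arrays and on 2 of 3 shCON arrays, with 5.24, 4.95 and 5.01 against 5.77, 5.72 and 5.11. The shCON arrays 1 and 2 were high and shCON array 3 lay among the shCypB values. The change of -0.46 ± 0.19 was not called (adjusted p = 0.090), and without shCON replicate 3 it was -0.67 and called (adjusted p = 0.0071). The authors' processed values of the same arrays also gave a call, with a log2 change of -0.31 (adjusted p = 0.014). The other RBL1 probe, ILMN_1753013, was undetected on all 6 arrays.

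The distance between members was also taken on each array. The log2 signal of CCND1 minus that of CCND3, set to a mean of 0 over the shCON arrays, was 0.96, 1.11 and 1.13 on the shCypB arrays and -0.05, -0.01 and 0.06 on the shCON arrays. For CDK6 minus CDK4 it was 1.27, 1.13 and 0.80 on the shCypB arrays and -0.09, 0.00 and 0.09 on the shCON arrays. For CCND1 minus CCNE1 it was 2.11, 2.20 and 2.21 on the shCypB arrays and -0.04, 0.02 and 0.02 on the shCON arrays. These pairs were chosen after their values were seen and are a description with no test. They show unequal change within each pair on every shCypB array.

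The RefSeq promoter table for the GRCh38.p14 assembly held an entry for 7 of the 10 genes, at the annotated 5′ end of the gene for 5 of them (CCNE1, CDK4, CDK6, RBL1 and RBL2). CCND1, CCND2 and CDK2 had none. The 250 bases upstream of the start are shown for the fallen CCNE1, the risen CDK6, and for CDK4 and RBL1, whose windows hold E-box or E2F matches. Motifs were searched on both strands and no matches overlapped in these windows. They were an E2F site (TTTCCCGC, TTTGGCGC, TTTCGCGC or TTTGCCGC), an E-box (CACGTG, bound by MYC and its partner MAX among others), a GC box (GGGCGG), an AP-1 site (TGANTCA) and the cell cycle homology region CHR (TTTGAA). Capitals mark any match, a match on the opposite strand being shown as its complement (CCGCCC for a GC box). The windows are chr19:29811741-29811990 on the plus strand for CCNE1, chr7:92836574-92836823 on the minus strand for CDK6, chr12:57752311-57752560 on the minus strand for CDK4 and chr20:37095998-37096247 on the minus strand for RBL1.
CCNE1: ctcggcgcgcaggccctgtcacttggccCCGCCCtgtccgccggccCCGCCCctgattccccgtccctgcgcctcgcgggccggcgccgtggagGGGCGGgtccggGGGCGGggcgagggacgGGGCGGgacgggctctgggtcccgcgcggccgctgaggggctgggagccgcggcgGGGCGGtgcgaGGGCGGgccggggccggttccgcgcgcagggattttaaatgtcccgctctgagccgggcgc
CDK6: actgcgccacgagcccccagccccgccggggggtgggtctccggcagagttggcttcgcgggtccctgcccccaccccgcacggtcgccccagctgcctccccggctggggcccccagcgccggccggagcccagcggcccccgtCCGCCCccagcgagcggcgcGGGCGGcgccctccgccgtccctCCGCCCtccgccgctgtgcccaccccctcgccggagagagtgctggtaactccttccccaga
CDK4: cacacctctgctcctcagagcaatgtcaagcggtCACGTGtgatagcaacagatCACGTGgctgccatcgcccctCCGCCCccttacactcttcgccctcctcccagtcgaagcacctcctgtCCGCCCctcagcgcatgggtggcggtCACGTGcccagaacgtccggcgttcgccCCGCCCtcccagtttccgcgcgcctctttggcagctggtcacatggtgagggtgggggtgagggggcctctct
RBL1: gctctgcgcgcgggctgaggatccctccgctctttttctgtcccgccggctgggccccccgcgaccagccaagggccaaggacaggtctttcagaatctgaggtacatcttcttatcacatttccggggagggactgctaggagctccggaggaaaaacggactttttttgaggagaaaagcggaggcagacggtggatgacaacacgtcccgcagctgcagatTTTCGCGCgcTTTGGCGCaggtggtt

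The CCNE1 window held 7 GC boxes and the CDK6 window held 3, a motif present in 42.6% of the 35116 promoter windows of the same length. The CDK4 window held 3 GC boxes and 3 E-boxes, and 6.34% of all windows hold an E-box. The RBL1 window held 2 E2F matches, at -26 to -19 and -16 to -9 from the start, and 2.79% of all windows hold one. The RBL2 window held 0 of these motifs. AP-1 and CHR, present in 6.57% and 13.3% of all windows, had no match in these 5 windows. A match is a run of letters and not a measured site.

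**Figure D4:**
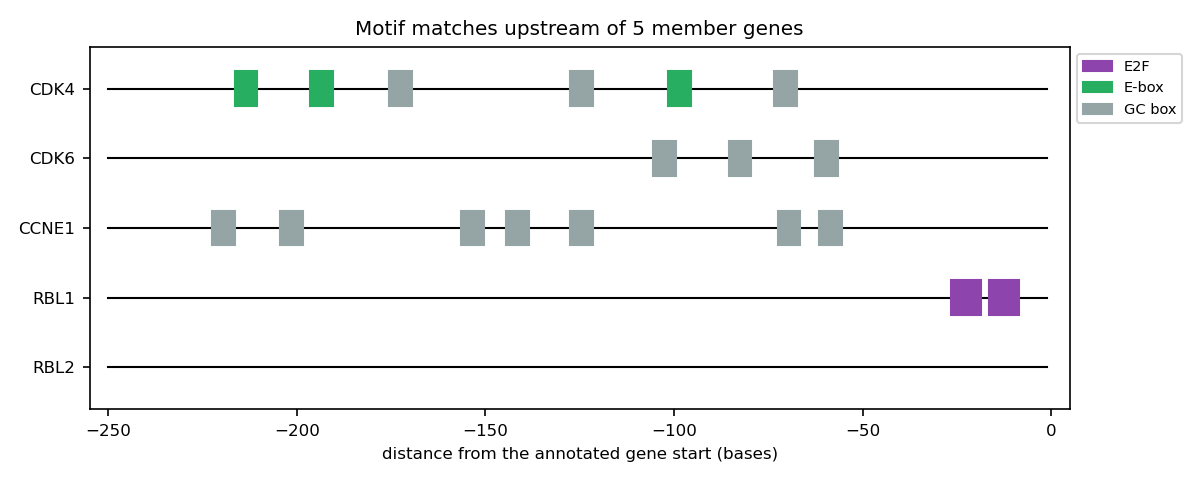
Motif matches in the 250 bases upstream of the annotated start of 5 member genes, by distance from the start. Purple blocks are E2F matches, green blocks E-boxes and grey blocks GC boxes. The 2 E2F matches lie side by side in RBL1, the 3 E-boxes lie in CDK4, and RBL2 has no match.

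The genes downstream of the retinoblastoma proteins fell in most cases. Of 20 tested E2F target genes of the G1/S transition, 17 were lower, 1 was higher and 2 were not called. Their median change was -0.56, against 0.03 over all tested genes, of which 20.8% were lower. This list, like those below, was chosen with earlier results of these data known, so its counts are a description. The ribonucleotide reductase subunit gene RRM2 fell by 1.36 ± 0.11, the thymidine kinase gene TK1 by 1.23 ± 0.11, the methylation maintenance gene UHRF1 by 1.08 ± 0.09 and the thymidylate synthase gene TYMS by 1.02 ± 0.10 on the log2 scale (adjusted p of 0.00031 or lower by limma). The exception, picked out after its value was seen, was CDC25A, the phosphatase that activates CDK2, with a rise of 0.54 ± 0.14 (adjusted p = 0.016). This call was lost without shCypB replicate 3 and when the probes of a gene were averaged. EZH2 and RRM1 were not called. With median scaling, which lifted the median change of all tested probes to 0.22 from 0.02, 4 of the 20 were called lower and their median was -0.29. That scaling aligns the medians over all probes on the array, detected or not, and most probes on each array were not detected. Quantile normalization instead gives all arrays the same distribution of signals. Which of these is nearer to the RNA content of the cells was not tested. In bulk RNA, fewer cells in S phase and less of these transcripts per cell cannot be told apart.

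The E2F factors and their DP partners moved both ways. Of 9 tested, 4 were lower, 2 were higher and 3 were not called, with a median change of -0.39. Over all tested genes, 20.8% were lower and 23.1% were higher. The activator gene E2F2 fell by 1.28 ± 0.10, the dimerisation partner gene TFDP1 by 0.82 ± 0.10 and E2F4, a partner of the pocket proteins p107 and p130, by 0.70 ± 0.09. E2F7, an atypical repressor of E2F target genes, rose by 1.12 ± 0.10. With median scaling 1 of these 9 was called lower and their median was -0.11. The median was -0.23 without shCON replicate 1 and -0.19 with detection p below 0.01 required on all 6 arrays. The MuvB core joins p130 or p107 in the DREAM complex and later binds MYBL2 and FOXM1 instead. Among 6 tested genes of this core and those later partners, 1 was higher, 2 were lower and 3 were not called. These counts lie near the 43.8% of all tested genes called in either direction, and nothing is read from them. MYBL2 was on the array but not detected widely enough to be tested. LIN37 fell by 0.84 ± 0.11, the mitotic transcription factor gene FOXM1 fell by 0.34 ± 0.11 at its brighter probe and LIN54 rose by 0.34 ± 0.09. The dimmer FOXM1 probe was also called lower (-0.44, adjusted p = 0.035 by limma). The call of the brighter FOXM1 probe was lost without any one of the 6 arrays. That of LIN54 was lost without shCypB replicate 1 or 3 or without shCON replicate 1. With median scaling the median of this list turned to 0.040, against -0.25.

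Most tested inhibitors of the member kinases rose. Of 4 tested CDK inhibitor genes, 3 were higher and CDKN2D was not called (-0.07 ± 0.13), beside 23.1% of all tested genes that were higher. CDKN1A (p21) rose by 1.41 ± 0.11 and CDKN1B (p27) by 1.21 ± 0.09 on the log2 scale, and both are inhibitors of cyclin E with CDK2. CDKN1C (p57), detected on 2 of 3 shCON arrays, rose by 0.75 ± 0.25 (adjusted p = 0.046 with all arrays). Its call was lost without shCypB replicate 1 or 3 and without shCON replicate 1 or 3. It was also lost with no filter on dim probes (adjusted p = 0.12) and with a replicate block (adjusted p = 0.057). CDKN2A and CDKN2B, whose products inhibit CDK4 and CDK6, were on the array but not detected widely enough to be tested.

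**Figure D5:**
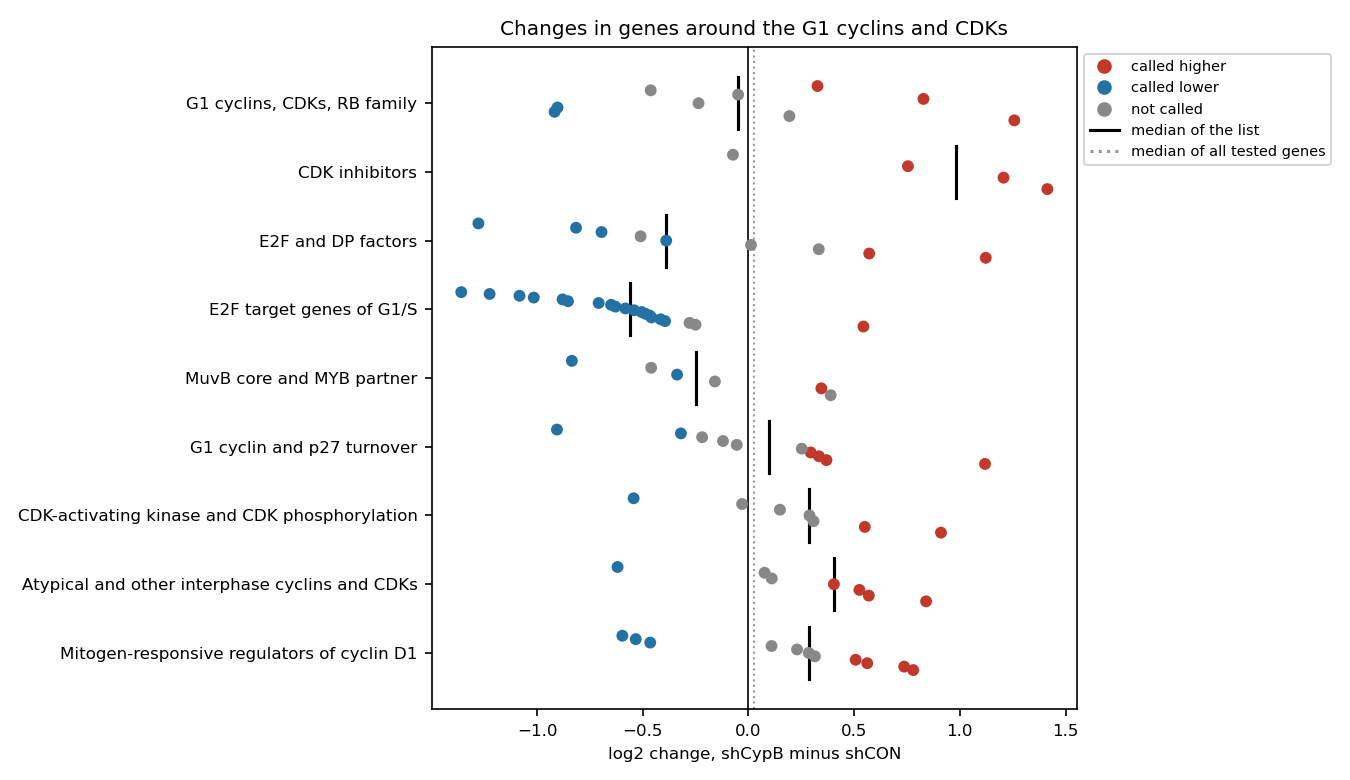
Log2 change, shCypB minus shCON, of the 9 tested member genes (top) and of 8 lists of genes around them, 1 point a gene. Red genes were called higher, blue genes lower and grey genes were not called. Black bars are list medians and the dotted line is the median of all tested genes, 0.03. The E2F target genes lie left of 0 except CDC25A, while the CDK inhibitors lie right of it except CDKN2D.

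Genes that govern the turnover of G1 cyclins and p27 moved both ways. Of 10 tested, 4 were higher, 2 were lower and 4 were not called, against 23.1% higher and 20.8% lower of all tested genes. FBXW7, the substrate receptor that marks cyclin E for degradation, rose by 1.12 ± 0.11 at its brightest probe, and its other probes gave 0.50, also called, and -0.07, not called. CKS1B, a cofactor in the degradation of p27, fell by 0.91 ± 0.11. SKP2, the receptor for p27, rose by 0.37 ± 0.12 and FBXO31, a receptor for cyclin D1, by 0.33 ± 0.09, both with calls lost without any one of the shCypB arrays and without shCON replicate 1. The call of SKP2 was also lost without shCON replicate 3, and its other 2 probes (0.16 and 0.13) were not called. The counts of this list fell to 1 higher and 1 lower without shCypB replicate 1 or 3 or without shCON replicate 1, and without shCypB replicate 2 also 1 was higher.

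Of 7 tested genes of the CDK-activating kinase and of CDK phosphorylation, 2 were higher, 1 was lower and 4 were not called. The shares over all tested genes were 23.1% higher and 20.8% lower, or 43.8% in either direction, and the list lies near the latter. WEE1, the inhibitory CDK kinase, rose by 0.91 ± 0.10 and CDK7, the catalytic subunit of the activating kinase, by 0.55 ± 0.09, whereas the activating phosphatase gene CDC25B fell by 0.54 ± 0.12. Of 7 other interphase cyclins and CDKs, 4 were higher, 1 was lower and 2 were not called, beside the same shares of all tested genes. CCNC, a cyclin of the Mediator complex, rose by 0.84 ± 0.09, CCNI by 0.57 ± 0.09 and CCNG2, a cyclin linked to cell cycle arrest, by 0.52 ± 0.13, and CDK5, best known in neurons, fell by 0.62 ± 0.11. Without shCypB replicate 1, 2 genes of this list were higher and the call of CCNG2 was lost (0.46, adjusted p = 0.063).

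Of 11 tested genes known as mitogen-responsive regulators of cyclin D1, 4 were higher, 3 were lower and 4 were not called. Over all tested genes, 23.1% were higher and 20.8% were lower. The median of the list was 0.29, or 0.56 with median scaling. The early response gene EGR1 rose by 0.78 ± 0.15, the Hippo pathway coactivator gene YAP1 by 0.74 ± 0.11 and the AP-1 subunit gene JUN by 0.56 ± 0.10, while the transcription factor gene ETS1 fell by 0.60 ± 0.13. With median scaling the falls of E2F4, TFDP1, CDC25B, CDK5, ETS1 and FOXM1 were no longer called, with the direction kept.

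Likeness of pattern was measured as the Euclidean distance between mean-centred log2 signals over the 6 arrays. The genes nearest to CCND1 were DBN1 (distance 0.12), EFNB3 (0.15) and MCFD2 (0.15). DBN1, which encodes the actin-binding protein drebrin, read 9.74 ± 0.07 in shCypB and 8.58 ± 0.09 in shCON (SD, n = 3). EFNB3, an ephrin ligand gene, was undetected on all shCON arrays and was at least 1.73-fold brighter in shCypB. The genes nearest to CCNE1 were CDK2AP2 (0.07), whose product is annotated as a CDK2-associated protein, GUCD1 (0.11) and EXOSC3 (0.12), which encodes a subunit of the RNA exosome. The falls of GUCD1 and EXOSC3 were not called with median scaling. CDK2AP2 read 7.67 ± 0.08 in shCypB and 8.64 ± 0.06 in shCON (SD, n = 3). Such likeness rests on 6 points that share the group difference and is a description.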

How the data were processed

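Total RNA, biotin labelled per the labels' protocols, was read on Illumina bead arrays. The deposited values are bead signal intensities on a linear scale, not normalized between arrays, each with a detection p-value, per the file headers. The authors also deposited processed intensities, used as an alternative. Partek is named in the submitters' processing notes, and how those values were normalized was not given in the sources used here.

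Signals were corrected with normexp in limma 3.58.1 (R 4.3.3), using an offset of 16 and control bead levels estimated through the detection p-values, quantile normalized and log2 transformed. Probes with detection p below 0.05 on at least 3 of 6 arrays (17608) were fitted with lmFit and eBayes, with group as the only term. Intervals are at the 95% level. A bound ("at least") divides the brighter group's mean by a floor, which on each dim array is the lowest detected signal or the probe's value, whichever is greater. With 3 arrays a group the smallest two-sided p of an exact permutation test is 0.1, so none was run. The fit was tested on simulated data. The simulated noise was independent between probes and far fewer probes were changed than were called here, so it gives no error rate for these calls. Symbols were updated by Entrez identifier to RefSeq (GRCh38.p14), and the probe table lists no symbol for 17110 probes. Slides are not named in the files. All columns of both tables were used.

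The named genes are all members, PPIB, up to 4 called genes of greatest change from each list (or, in a list without calls, the 2 of smallest p), and the 3 nearest patterns of the member that rose most and the one that fell most. The members and lists were chosen with earlier results of these data known. Alternatives were no background correction, an offset of 50, median scaling, the authors' processed table, detection p below 0.01 on all 6 arrays, no filter, the mean of a gene's probes, the replicate number as a block, and each array left out in turn.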

Additional observations from a re-analysis of the deposited data

How the results depend on the processing

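The counts of called probes, member probes and member genes stayed within 1.5 times of the reported counts under all alternatives, with 4 to 6 member genes called in place of 5. Among the members, the 14 alternatives each for CCND1, CDK6 and the bright probes of CCNE1 and CDK2 kept direction and call. The ranges were 1.21 to 1.54, 0.73 to 1.12, -0.95 to -0.59 and -0.98 to -0.62. The -0.59 came from the mean of the tested CCNE1 probes. The smallest fall of the bright CCNE1 probe itself was -0.63, with median scaling. Values turned for members that were not called. CDK4 was 0.050 and RB1 was 0.24 with median scaling. RB1 ranged from -0.10 to 0.023 and the dim CCNE1 probe from -0.45 to 0.0061 with single arrays left out, both above 0 only without shCON replicate 3. RBL2 was 0.60 with median scaling and called. With that scaling 80.5% of 4696 called probes were higher, against 52.7% of 6775 as reported, and 917 probes were lower, against 3205. Lower calls among the E2F targets were then 4 in place of 17, among E2F factors 1 in place of 4 and among cyclin D1 regulators 0 in place of 3, and the median of the MuvB list was 0.040, against -0.25. The median of the turnover list, 0.10 as reported, was -0.056 with detection p below 0.01 on all 6 arrays, -0.088 with no filter, and between -0.0087 (without shCON replicate 1) and 0.17 (without shCON replicate 3) with single arrays left out. Under that stricter detection limit 7 cyclin D1 regulators were higher, in place of 4. The causes were not tested. Same-numbered samples did not deviate together (r of -0.10, -0.11 and 0.01 for replicates 1 to 3). With 3 samples a group, taken as deviations from their group mean, these values cannot show whether the samples were paired. A replicate block gave 5786 called probes and ended the call of RBL2 (0.33, adjusted p = 0.065). It also ended the calls of CDKN1C, LIN54, the brighter FOXM1 probe, FBXO31 and SKP2 (adjusted p of 0.057 to 0.072 by limma). The turnover list then had 1 gene higher and 1 lower. Probes near the floor, the CCND2 and RBL1 probes and the dim CCNE1 probe, limit what can be said of those genes. The slide could not be used as a block because the files name none, and the dim CCNE1, CDK2 and RBL1 probes had no value under the stricter filter.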
